A study of Mus musculus with 6 samples.

Results

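Transport between the nucleus and the cytoplasm runs through nuclear pores, channels built of many copies of the nucleoporins. Carrier proteins called karyopherins take cargo through them: importins bring proteins in, and exportins take proteins and RNA out. Direction comes from the small GTPase Ran, which is loaded with GTP on chromatin by the exchange factor Rcc1 and made to hydrolyse it in the cytoplasm by Rangap1 with the help of Ranbp1 and Ranbp2. Dividing cells such as neural precursors take their pores apart in mitosis and rebuild them afterwards, and karyopherins and Ran also act on the mitotic spindle.

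The genes described here are the nucleoporins, karyopherins and Ran cycle genes measured in cultures of mouse cortical precursors. They were taken by gene symbol, from gene probes with 1 symbol in the array's annotation, and Xpo5 was left out by rule. That gave 61 of 34967 gene probes, for 48 genes, 13 of them with 2 probes. The family was chosen by someone who already knew how these 6 arrays differed, and Ranbp1 was among the genes of small p in that contrast. All differences between the groups are therefore given as a description and support nothing. Ran itself, Nutf2, Ranbp3, Nup35, Nup58 and Nup85 had no probe with a single symbol and have no value here.

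Neurospheres, floating balls of precursor cells, were cultured from fetal C57BL/6 mice, taking dorsal telencephalon at embryonic day 12.5. The medium held bFGF at 20 ng/ml, EGF at 20 ng/ml and LIF at 0.15 ng/ml. One group of 3 received a 2'-O-methyl modified nonsense oligonucleotide directed at EGFP (2' O Me-EGFP), the control, and the other group of 3 an antisense one of the same chemistry directed at miR-335 (2' O Me-335), for 24 in a unit the labels do not give. Each RNA was read on 1 single-colour CodeLink array; the labels call the replicates independent without saying what was repeated, so the spread between the 3 arrays of a group may be technical. The block of miR-335 has no check here, because microRNA levels were not analysed.

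The 2 mature arms of miR-335, encoded on chromosome 6 within the Mest gene, are shown because one of them is what the antisense oligonucleotide pairs with; the labels do not say which. Sequences are RefSeq's, build GRCm38.p6, plus strand, 5′ to 3′, with the seed (bases 2 to 8) in capitals.
mmu-miR-335-5p, chr6:30741314-30741336: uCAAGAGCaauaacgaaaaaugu
mmu-miR-335-3p, chr6:30741354-30741375: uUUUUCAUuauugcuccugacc
Which transport genes carry a match to these seeds in their transcripts was not analysed here.

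Values are deposited intensities in units of each array's median, so 1 is the median spot of an array. A probe counted as above background where it exceeded the array's negative control spots by 3 scaled median absolute deviations, a limit between 0.492 and 0.692. In replicate order the limit was 0.656, 0.630 and 0.645 on the controls and 0.692, 0.563 and 0.492 on the anti-miR-335 arrays. The same dim value can thus count as above background on 1 array and not on another. The gene-probe medians lay between 0.991 and 0.996, and 59.9% to 67.3% of gene probes were above background. All 11 measured markers of neural precursors were above background on at least 3 arrays, Fabp7, Vim and Sox2 among them. Their summed intensity ran from 289 to 317 in the controls and from 328 to 361 in the treated group. Fabp7, Vim and Slc1a3 were the brightest in that sum, and by mean log2 8 of the genes were higher and 3 lower. Of the markers of other cell types, 5 of 7 neuronal, 5 of 5 oligodendrocyte lineage, 5 of 5 astrocyte, 1 of 6 microglial, 3 of 6 endothelial, 0 of 2 erythroid and 1 of 6 mesenchymal were above background on at least 3 arrays. Ptprc, from the microglial list, and Pecam1, from the endothelial list, were above background on no array. On the same lists Cx3cr1 and Kdr were above it on 5 arrays each, and Cldn5 and Tek on 3 each. Summed neuronal markers ran from 9.83 to 13.4 in the controls and from 12.4 to 16.6 in the anti-miR-335 arrays, and astrocyte markers from 118 to 133 and from 121 to 149. By mean log2, 6 neuronal markers were higher and 1 lower, and 4 astrocyte markers were higher and 1, the bright S100b, lower. Single markers differed more than these sums. Dcx (log2 difference 1.015 ± 0.177, SE), Aqp4 (0.694 ± 0.114) and Gja1 (1.129 ± 0.244) were higher on every anti-miR-335 array. So were the precursor markers Hes5 (0.787 ± 0.145) and Fabp7 (0.291 ± 0.119). Summed oligodendrocyte lineage markers ran from 84.3 to 123 in the controls and from 78.4 to 107 in the treated group, with 4 of 5 genes lower by their mean log2. Olig1 lay at 1.93, 24.3 and 25.9 on the controls and 18.6, 26.8 and 1.61 on the anti-miR-335 arrays, in replicate order. It was thus far lower on 1 array of each group, and Olig2 was lowest on the same arrays. Sox10, the gene not lower, was higher on every anti-miR-335 array (log2 difference 0.38 ± 0.13, SE). The part of cell composition in the differences below was not tested, and in cultures more cells of a type cannot be told apart from more RNA per cell.

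Of the 61 probes, 48 were above background on at least 3 arrays, 39 of them on all 6; a probe can reach 3 arrays through 1 group alone. Those 48 stood for 41 genes. The other 13 had values from 0.044 to 0.676, and 7 of them were above background on no array. The 7 genes known here only from such dim probes were Ranbp2, Kpna7, Tnpo3, Xpo4, Nup62, Nup155 and Nup205, and no fold is given for them.

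One array has to be named before the results. Control replicate 1 lay above both other controls for 32 of the 46 probes that were above background and had values on all arrays (69.6%), where this held for 51.5% of all 21356 such probes on the array. It was the highest of all 6 arrays for 21 of the 46 (45.7%, against 29.5% of all such probes). Set against the mean of control replicates 2 and 3, the median log2 value of the 46 was 0.26 on control replicate 1 and 0.11, 0.14 and 0.22 on the anti-miR-335 arrays in replicate order. The same medians over all 21356 probes were 0.10, 0.02, 0.12 and 0.08. Control replicate 1 thus read higher for this family than any anti-miR-335 array did. The median of its positive control spots was 3.49, the lowest among the 6 arrays (highest 5.19); the part of this in the results was not tested. Members whose call changes when it is left out are given with and without it, and the plot of differences by role shows both values for every probe above background.

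**Figure D1:**
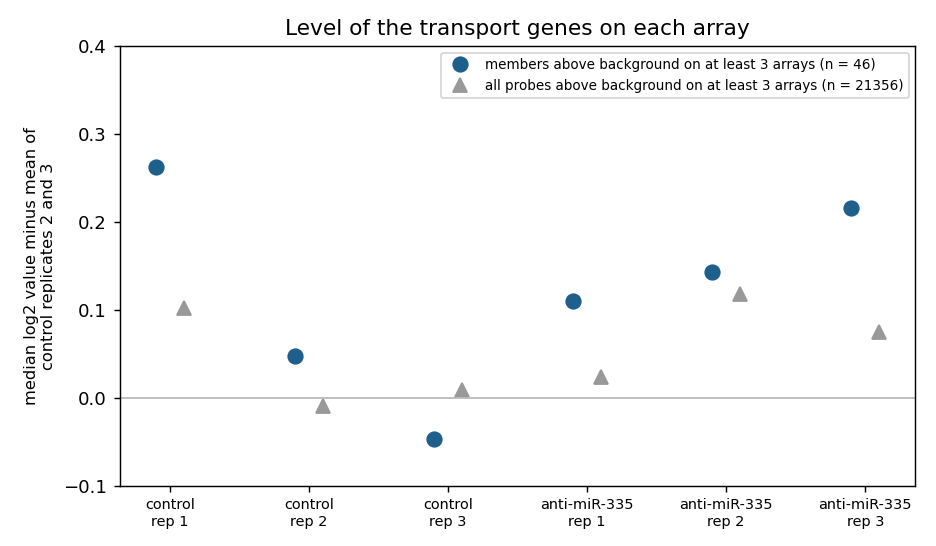
Median log2 level of the transport genes (blue circles, 46 probes) and of all probes above background (grey triangles, 21356 probes) on each of the 6 arrays, relative to the mean of control replicates 2 and 3 (0 on the y axis). The transport genes are highest on control replicate 1, at 0.26, and lie between 0.11 and 0.22 on the anti-miR-335 arrays.

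As a family the transport genes lay close to their control levels on the anti-miR-335 arrays, and Ranbp1 had the smallest p of them. The median log2 difference, anti-miR-335 minus control, was 0.04 over the 61 probes and 0.01 over all 34847 probes tested, and 36 of the 61 were positive (59.0%, against 51.9% of all). By limma, 0 of the 61 probes passed an adjusted p of 0.05, as did 0 of all 34847 (0%). At an unadjusted p under 0.05 there was 1 member probe higher (of Nup133), where 4.91% of all probes were, and 1 lower (Ranbp1), where 4.17% were. Group values did not overlap for 2 of 59 members with values on all arrays in the higher direction, against 7.44% of all probes, and for 3 in the lower direction, against 7.21%. The 3 lower ones were Ranbp1, Ipo5 and Ipo13, and the 2 higher ones were Tnpo2 and Ranbp17. Among the 48 probes above background, 23 differed by less than 0.1 on the log2 scale and 7 by more than 0.3; their standard errors ran from 0.10 to 0.48 with a median of 0.15.

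Without control replicate 1 the family read higher in the anti-miR-335 arrays. This direction follows from that array's high values for the family, described above, and is not a separate finding. Of the 48 probes above background, 39 had a higher difference without that array. The median log2 difference over the 48 was then 0.15, 34 of them positive (70.8%), against 0.06 and 58.8% for all probes above background. With control replicate 1 left out, 4 members passed an adjusted p of 0.05 by limma. Xpo1, Nup93 and Ipo8 were higher, where 2.27% of all probes passed, and Ranbp1 was lower, where 0.906% did. In the same fit 11 of 61 members had an unadjusted p under 0.05 (18.0%, against 18.4% of all probes). Groups did not overlap for 22 of 60 members (36.7%, against 35.3%), so both shares were near those of all probes. Without the whole replicate 1 pair 4 passed as well: Nup93, Xpo1 and Xpo7 higher, where 3.52% of all probes passed, and Ranbp1 lower, where 1.05% did. Both fits were made on arrays that the choice of the family already used.

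**Figure D2:**
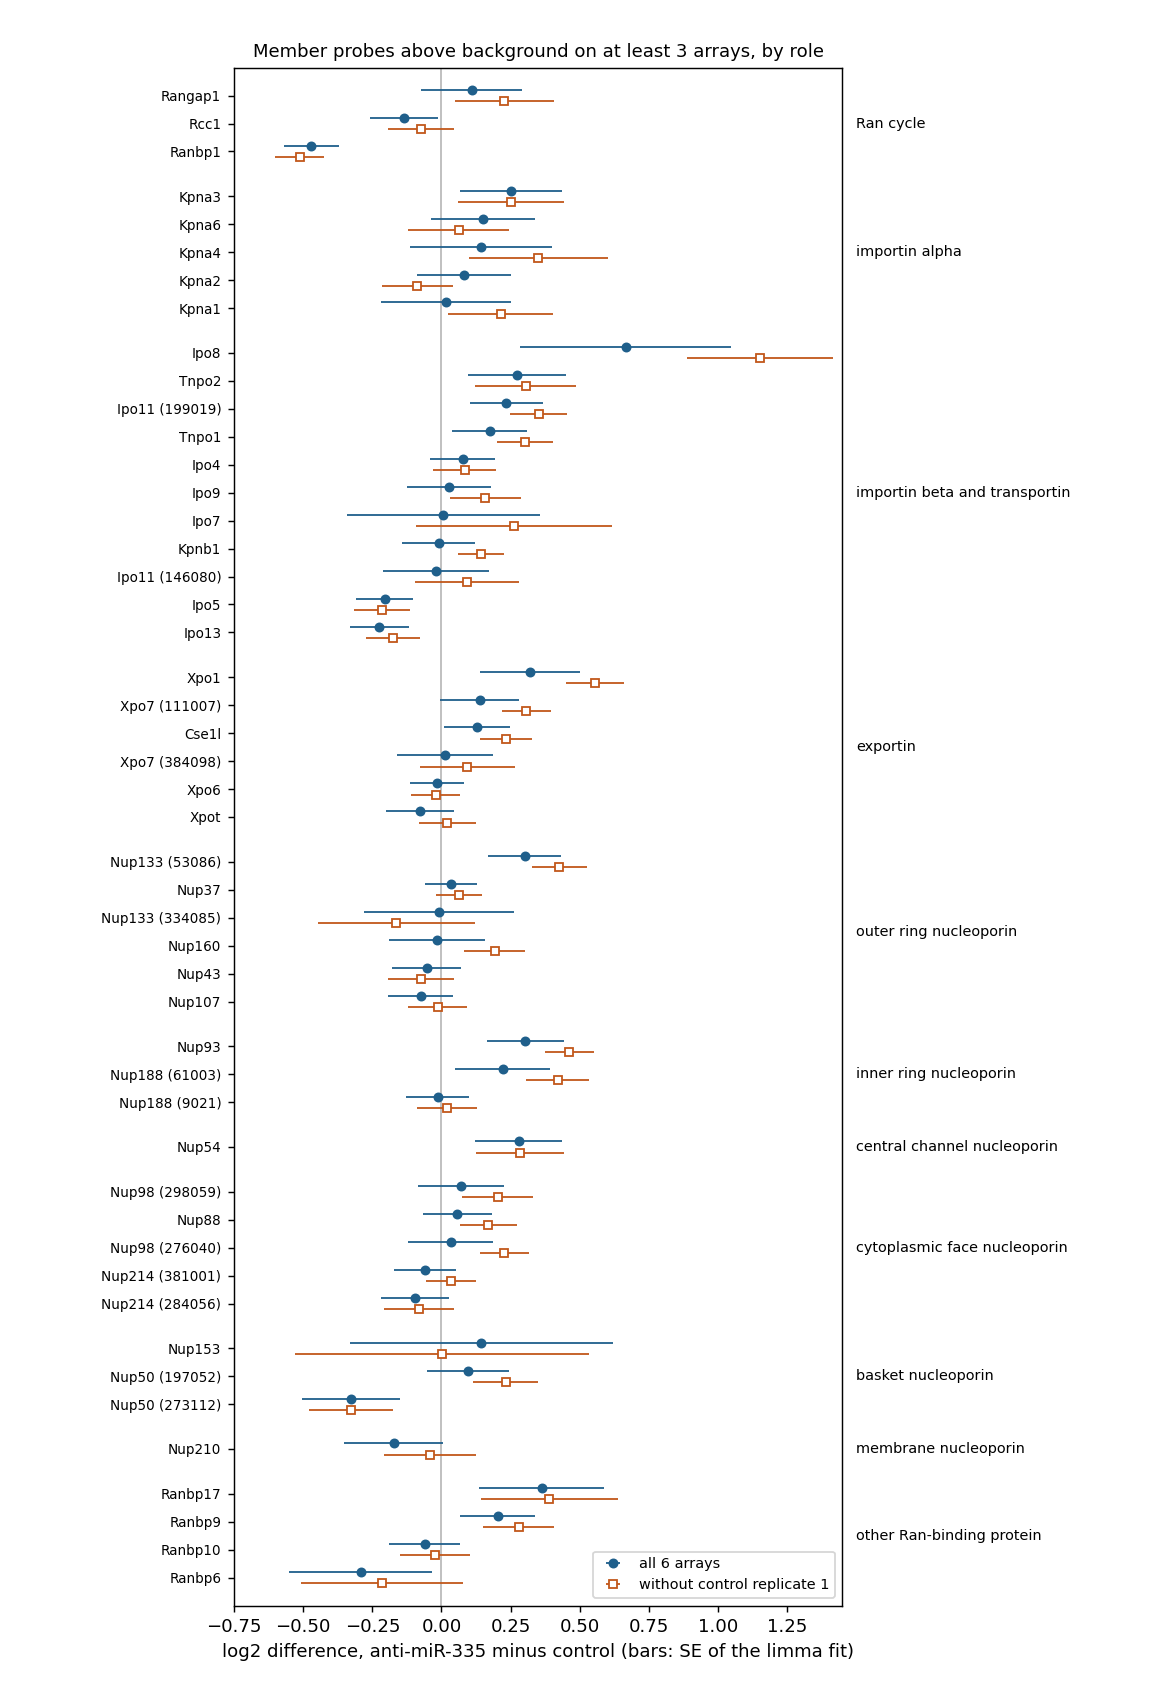
Log2 difference, anti-miR-335 minus control, of the 48 transport gene probes above background on at least 3 arrays, grouped by role (labels at right; probe numbers in brackets where a gene has several), with bars for the standard error of the limma fit. Filled circles use all 6 arrays and open squares leave out control replicate 1; Ranbp1 lies at -0.47 and -0.51, while Xpo1 moves from 0.32 to 0.56.

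The Ran cycle was read by 4 genes. Ranbp1, the cytoplasmic protein that binds Ran-GTP and helps Rangap1 act on it, lay at 22.4, 23.8 and 25.2 on control replicates 1, 2 and 3 and at 17.2, 18.1 and 16.2 on the 3 anti-miR-335 arrays. Every anti-miR-335 array was below every control, including control replicate 1, which was the lowest of the controls. The log2 difference was -0.47 ± 0.10 (SE, n = 3 per group), a fold of 0.722, with an adjusted p of 0.374 by limma. It was -0.51 ± 0.09 without control replicate 1 (adjusted p = 0.0251 by limma).

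For the other Ran cycle genes the groups overlapped. Of the 3 Ran cycle probes above background, Ranbp1 included, 2 differences were negative and 1 positive. Over all 4 probes, with the dim one of Ranbp2, 3 were negative. Rcc1, the exchange factor, lay at 105, 90.8 and 93.9 on the controls and 87.8, 95.7 and 80.3 on the anti-miR-335 arrays, in replicate order as in all values that follow; differences are log2, with the SE of the fit. Its groups overlapped, with a log2 difference of -0.14 ± 0.12. Rangap1, the GTPase activator, lay at 5.37, 4.56 and 3.86 against 3.88, 4.88 and 6.27. The groups overlapped (0.11 ± 0.18), the highest value being on anti-miR-335 replicate 3. Ranbp2, the large protein of the pore's cytoplasmic filaments, was above background on 1 control array and on no anti-miR-335 array, at 0.282, 0.634 and 0.459 against 0.445, 0.262 and 0.123.

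**Figure D3:**
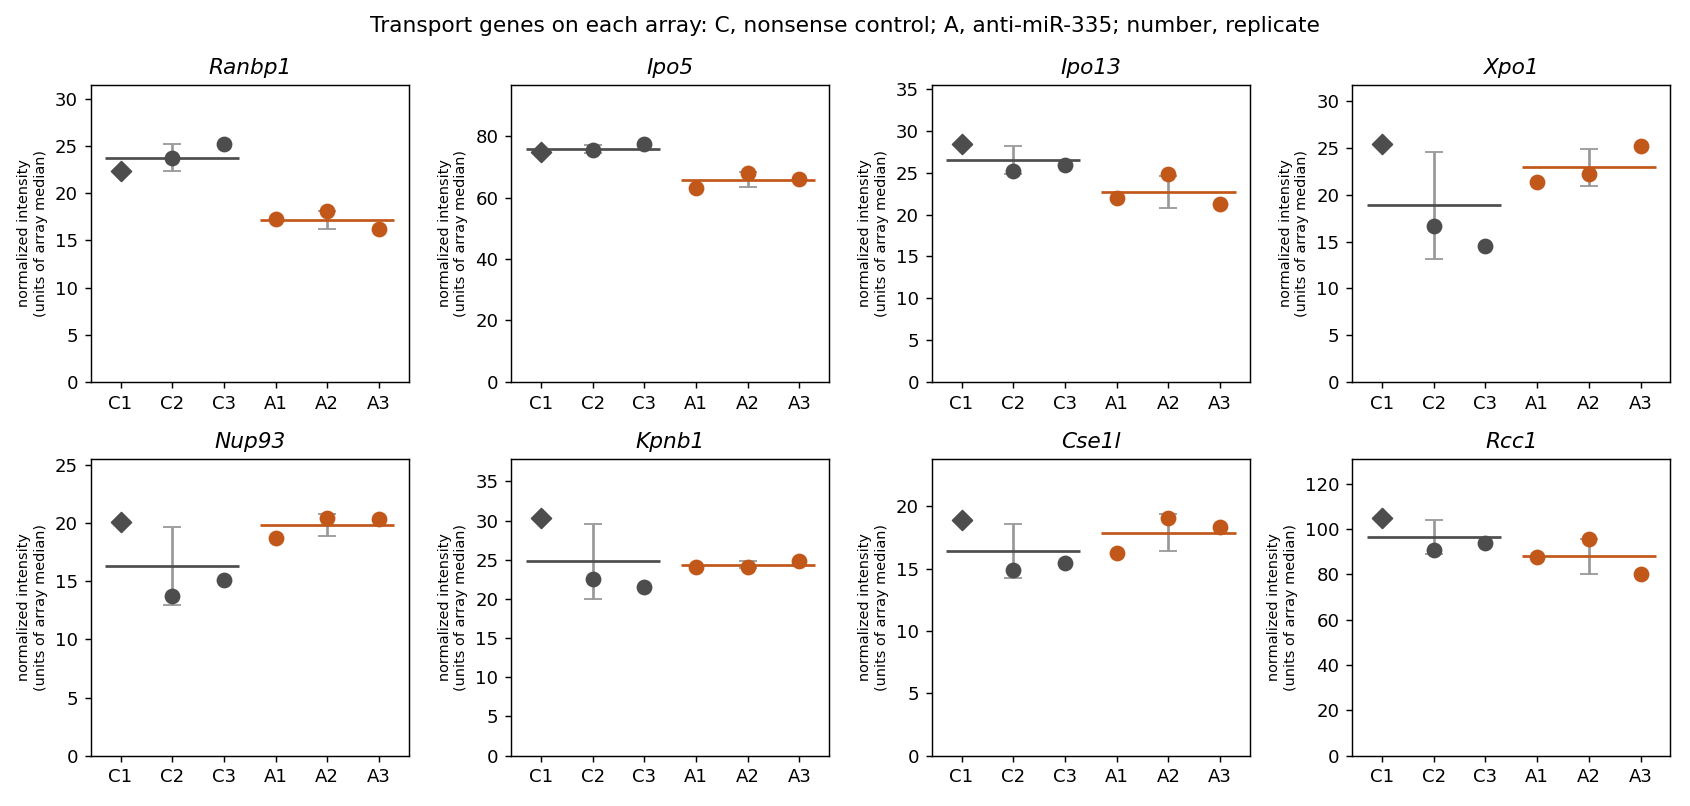
Normalized intensity (units of the array median, linear axis from 0) of 8 transport genes on each array: grey, control replicates 1 to 3 (C1 to C3; diamond, control replicate 1); orange, anti-miR-335 replicates 1 to 3 (A1 to A3); horizontal lines, group means; error bars, SD, n = 3. Ranbp1, Ipo5 and Ipo13 are lower on every anti-miR-335 array, while for Xpo1, Nup93, Kpnb1 and Cse1l control replicate 1 lies well above the other controls (25.4 against 16.7 and 14.5 for Xpo1).

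Importin alpha proteins recognise the classical nuclear localisation signal and hand the cargo to importin beta. A probe of 5 of the 6 genes was above background, and all 5 of these differences were positive but small, between 0.02 and 0.25 on the log2 scale. Kpna2, the form best known from dividing cells, lay at 2.11, 3.12 and 2.88 against 2.76, 3.16 and 2.57 on its probe above background (0.08 ± 0.17). Here control replicate 1 was the lowest array, opposite to its place for most of the family, and without it the difference was -0.09 ± 0.13. A second Kpna2 probe was above background on no array, at 0.256, 0.263 and 0.188 against 0.179, 0.217 and 0.116.

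Kpna3 lay at 1.39, 1.61 and 1.19 against 1.90, 1.47 and 1.61 (0.25 ± 0.18). Kpna4 lay at 1.09, 0.590 and 0.857 against 0.948, 0.845 and 0.930, with control replicate 1 again the highest array. Kpna6 lay at 1.19, 1.60 and 1.29 against 1.64, 1.58 and 1.30. In each of the 3 the group values overlapped. Kpna1 had no value on anti-miR-335 replicate 2, so its difference of 0.02 ± 0.23 rests on 2 arrays of that group, and the 2 probes of Kpna7 were above background on 1 array and on none.

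The importin beta carriers and transportins were the largest group, with 13 probes for 11 genes. Their signs were mixed: 8 differences were positive and 5 negative, with a median of 0.03. Kpnb1, importin beta itself and the main partner of importin alpha, lay at 30.3, 22.6 and 21.6 against 24.1, 24.1 and 24.9. The 3 anti-miR-335 arrays agreed closely and sat between control replicate 1 and the other 2 controls. The log2 difference was -0.01 ± 0.13 with all arrays and 0.14 ± 0.08 without control replicate 1.

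Ipo5, which carries ribosomal proteins and histones, and Ipo13, which works in both directions, were the 2 importins lower on every anti-miR-335 array. Ipo5 lay at 74.7, 75.4 and 77.4 against 63.3, 68.2 and 66.0, with controls within 3 units of each other. Its log2 difference was -0.20 ± 0.10, and -0.22 ± 0.10 without control replicate 1. Ipo13 lay at 28.4, 25.2 and 25.9 against 21.9, 24.9 and 21.3, a log2 difference of -0.23 ± 0.11; the gap between the lowest control and the highest anti-miR-335 array was small. Their unadjusted p by limma was 0.0763 and 0.0583, and their adjusted p 0.598 and 0.569.

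Higher values were found for other carriers. Ipo8, whose cargo includes Argonaute proteins of the microRNA pathway, lay at 1.52, 0.698 and 0.437 against 1.24, 1.08 and 1.38. Control replicate 2 was just above its array's background limit of 0.630 and control replicate 3 below its limit of 0.645. Control replicate 1 was the highest of all 6 arrays. The log2 difference of 0.67 ± 0.38 therefore became 1.15 ± 0.26 without that array (adjusted p = 0.0486 by limma), just inside the threshold, with the Nup133 probe just outside at 0.0505. Ipo8 missed the threshold without the replicate 1 pair (adjusted p = 0.0961 by limma), and without control replicate 3 alone its log2 difference was 0.25.

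Ipo11, a carrier of ubiquitin-conjugating enzymes, had 2 probes above background that differed in sign. One lay at 6.56, 5.27 and 5.03 against 6.37, 7.25 and 6.13 (0.23 ± 0.13). The other lay at 1.83, 1.38 and 1.52 against 1.48, 1.88 and 1.33 (-0.02 ± 0.19). On the first, control replicate 1 stood among the anti-miR-335 arrays; on the second, the groups were mixed. Among the remaining carriers Tnpo1, which imports hnRNP proteins, differed by 0.17 ± 0.13, Ipo4 by 0.08 ± 0.12, Ipo9 by 0.03 ± 0.15 and Ipo7 by 0.01 ± 0.35. Tnpo2, a close relative of Tnpo1, did not overlap between groups on its brighter probe, at 1.15, 1.08 and 1.08 against 1.48, 1.24 and 1.28 (0.27 ± 0.18). Its dim probe and that of Tnpo3, the importin of SR splicing proteins, were above background on no array.

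Among exportins, Xpo1 had the largest positive difference of any probe above background on every array of both groups. Xpo1, also known as CRM1, exports proteins with leucine-rich signals and several kinds of RNA. It lay at 25.4, 16.7 and 14.5 against 21.4, 22.2 and 25.2. Control replicate 1 was the highest array and the other controls the lowest, so the groups overlapped through that 1 array. The log2 difference was 0.32 ± 0.18 with all arrays (adjusted p = 0.637 by limma) and 0.56 ± 0.10 without control replicate 1 (adjusted p = 0.0285). A second Xpo1 probe was above background only on control replicate 1, at 0.664, 0.394 and 0.624 against 0.583, 0.270 and 0.311.

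Cse1l, which returns importin alpha to the cytoplasm, lay at 18.9, 14.9 and 15.4 against 16.2, 19.1 and 18.4 (0.13 ± 0.12). Control replicate 1 again lay above the other controls, with a difference of 0.23 ± 0.10 without that array. Xpo7 lay, on its brighter probe, at 20.1, 14.2 and 14.2 against 16.4, 17.9 and 18.3 (0.14 ± 0.14; 0.31 ± 0.09 without control replicate 1). Without the replicate 1 pair this Xpo7 probe had an adjusted p of 0.0491 by limma. Its second probe differed by 0.01 ± 0.17. Xpo6, the exporter of actin with profilin, was level, at 19.3, 18.8 and 20.4 against 18.1, 19.7 and 20.1. Xpot, the tRNA exporter, lay at 12.9, 11.0 and 9.99 against 9.56, 11.3 and 11.2. Xpo4 was dim, at 0.536, 0.576 and 0.246 against 0.573, 0.669 and 0.515, and above background on 2 anti-miR-335 arrays and no control. Those 2 arrays, replicates 2 and 3, had lower background limits than any control. Control replicates 1 and 2 read higher than anti-miR-335 replicate 3.

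Nucleoporins were measured by 22 probes for 17 genes, with 19 of the probes above background. Their median log2 difference was 0.05 over the 22, with 13 positive and 9 negative, and among nucleoporin probes with values on all 6 arrays none had groups that did not overlap. The outer ring, whose Y-shaped complex frames the pore on both faces, was near the control level except for Nup133. Nup133 lay at 4.75, 3.62 and 3.71 against 5.03, 4.65 and 5.11 (0.30 ± 0.13). Control replicate 1 reached into the anti-miR-335 range, and without it the difference was 0.43 ± 0.10. A second Nup133 probe, near background, lay at 0.489, 0.646 and 0.707 against 0.515, 0.586 and 0.728 (-0.01 ± 0.27) and did not share the direction.

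The other outer ring genes differed by less than 0.1. Nup107 lay at 8.60, 7.02 and 8.14 against 8.24, 7.27 and 7.02. Nup37 lay at 13.3, 12.3 and 12.8 against 12.9, 13.7 and 12.7, among the tightest sets of values in the family. Nup43 lay at 3.07, 3.42 and 3.02 against 2.86, 3.25 and 3.04. Nup160 differed by -0.02 ± 0.17, with control replicate 1 at 4.81 and the other 5 arrays between 2.97 and 3.70.

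The inner ring holds the pore's core scaffold, and Nup93 links its parts. Nup93 lay at 20.1, 13.7 and 15.1 against 18.8, 20.4 and 20.4. Control replicate 1 had the level of the anti-miR-335 arrays, and control replicates 2 and 3 were lower than all of them. The log2 difference was 0.30 ± 0.14 with all arrays (adjusted p = 0.557 by limma) and 0.46 ± 0.09 without control replicate 1 (adjusted p = 0.0312). Nup188, a large scaffold partner of Nup93, gave unlike answers on 2 probes. One lay at 4.45, 3.01 and 2.86 against 3.66, 4.27 and 3.88 (0.22 ± 0.17; 0.42 ± 0.11 without control replicate 1), and the other at 7.38, 6.85 and 6.90 against 6.23, 7.80 and 6.97 (-0.01 ± 0.12). Nup155 was above background on 1 anti-miR-335 array, at 0.446, 0.336 and 0.504 against 0.396, 0.451 and 0.620, and Nup205 on none, at 0.124, 0.411 and 0.090 against 0.234, 0.418 and 0.1002.

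In the channel, cytoplasmic face, basket and membrane, the differences of probes above background were under 0.3 in size except on 1 probe of Nup50. Nup54 of the central channel lay at 2.08, 2.44 and 1.74 against 2.40, 2.53 and 2.60 (0.28 ± 0.16), and its partner Nup62 was dim, at 0.328, 0.450 and 0.324 against 0.498, 0.634 and 0.440. On the cytoplasmic face, Nup88 lay at 29.6, 23.5 and 23.6 against 24.5, 25.4 and 29.8 (0.06 ± 0.13). Nup214, which anchors Nup88 there, was level on both its probes. The first lay at 50.4, 43.4 and 55.2 against 46.9, 49.9 and 42.4 (-0.10 ± 0.12) and the second at 35.6, 28.2 and 30.4 against 30.7, 30.7 and 28.7 (-0.06 ± 0.11). Nup98, a mobile nucleoporin, lay at 2.76, 2.20 and 1.99 against 2.33, 2.52 and 2.38 on one probe (0.07 ± 0.15); the other differed by 0.03 ± 0.15 with all arrays and by 0.23 ± 0.09 without control replicate 1, control replicate 1 being at 18.3 and the other arrays between 12.0 and 15.0.

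In the nuclear basket, the 2 probes of Nup50, a cofactor of importin-mediated transport, differed in sign. One lay at 6.07, 4.92 and 4.24 against 5.56, 4.79 and 5.80 (0.10 ± 0.15). The other had no value on control replicate 1, where the spot carried the software's flag I; it lay at 2.17 and 2.78 on control replicates 2 and 3 and 1.91, 2.12 and 1.86 on the anti-miR-335 arrays (-0.33 ± 0.18). All 3 anti-miR-335 values of that probe were below both control values. Nup153, the basket's anchor, was near background at 0.401, 0.891 and 0.326 against 0.836, 0.287 and 0.655, with neither group holding together. Nup210, a glycoprotein of the pore membrane, lay at 2.20, 1.85 and 1.51 against 1.50, 1.77 and 1.62 (-0.17 ± 0.18).

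Ranbp6, Ranbp9, Ranbp10 and Ranbp17 carry a Ran-binding name without being core transport factors of the cycle. Ranbp9, a scaffold protein of a ubiquitin ligase complex, lay at 5.02, 4.82 and 3.82 against 4.91, 4.96 and 5.80 (0.20 ± 0.14), and its relative Ranbp10 differed by -0.06 ± 0.13. Ranbp17, an exportin-like protein, did not overlap between groups on one probe, close to background, at 0.793, 0.904 and 0.623 against 0.923, 1.09 and 0.940 (0.36 ± 0.23). Its second probe, above background on no array, lay at 0.317, 0.311 and 0.268 against 0.500, 0.378 and 0.281. Ranbp6, an importin relative, lay at 0.829, 0.824 and 0.601 against 0.519, 0.721 and 0.597 (-0.29 ± 0.26).

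There were 7 genes with 2 probes above background. The 2 differences had the same sign for Nup214, Nup98 and Xpo7 and opposite signs for Ipo11, Nup133, Nup188 and Nup50. In each of these 4, at least 1 of the 2 differences was smaller than its standard error.

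Genes of the pathway whose symbols fall outside the family's naming were read from lists, with the probe of highest mean for each gene. Other nucleoporins were measured for 10 genes, with a median log2 difference of 0.13, 7 positive and 3 negative. Pom121, a membrane anchor of the pore, lay at 16.2, 11.5 and 11.1 against 14.0, 16.6 and 15.9, with control replicate 1 among the anti-miR-335 arrays; its difference was 0.28 ± 0.15 with all arrays and 0.46 without that one. Ahctf1, which starts pore assembly on chromatin, lay at 8.22, 8.09 and 8.60 against 6.24, 8.10 and 6.63 (-0.26 ± 0.12), and Nupl2 at 0.916, 0.615 and 0.787 against 1.47, 1.09 and 0.846 (0.54 ± 0.26). By limma 0 of the 10 passed with all arrays, with 0 at an unadjusted p under 0.05, and 1 (Pom121, higher) passed without control replicate 1, where 2.27% of all probes passed higher.

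Transport adaptors and Ran regulators outside the family were measured for 12 genes, with a median of 0.08 and 8 positive. Phax, the adaptor that links small nuclear RNA to Xpo1, lay at 7.44, 8.19 and 8.02 against 9.999, 11.8 and 15.5. Every anti-miR-335 array was above every control, and the log2 difference was 0.64 ± 0.15 (adjusted p = 0.394 by limma). Nxt2, a cofactor of mRNA export, lay at 24.5, 15.3 and 11.9 against 22.3, 23.5 and 21.6 (0.45 ± 0.21), with control replicate 1 the highest array and a difference of 0.73 without it. Of 12 measured genes of mRNA export complexes, 7 were positive and 5 negative, with a median of 0.15. The helicase gene Ddx39a lay at 9.06, 9.74 and 9.05 against 11.3, 12.8 and 11.4 (0.34 ± 0.10) with no overlap. Pcid2 of the TREX-2 complex lay at 6.65, 5.60 and 5.68 against 6.56, 7.36 and 6.83 (0.21 ± 0.11). By limma 0 of the 24 genes in these 2 lists passed with all arrays, and 2 were higher at an unadjusted p under 0.05, where 4.91% of all probes were. Without control replicate 1, 1 adaptor (Nxt2) and 2 mRNA export genes (Thoc1 and Zc3h11a) passed, all higher, where 2.27% of all probes did.

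Promoters are shown for the gene that was lower on every anti-miR-335 array with the smallest p, Ranbp1, and for the 2 genes that passed higher without control replicate 1 and without its pair, Xpo1 and Nup93, so that their letters can be set side by side. RefSeq's windows of 250 bases before to 50 after a start matched 40 of the 48 genes, with 47 windows. Short motifs were searched on both strands: CCAAT, the E-box CACGTG, the NRF1 motif TGCGCA, the ETS motif CCGGAAG, the GC box GGGCGG, the TATA box TATAAA and the E2F motif GCGGGAA. The 250 bases before the start are printed, build GRCm38.p6, 5′ to 3′ on the gene's strand, with matches in capitals; in Nup93 1 GC box overlaps the E-box and 2 others overlap each other.
Ranbp1, chr16:18248695-18248944, minus strand: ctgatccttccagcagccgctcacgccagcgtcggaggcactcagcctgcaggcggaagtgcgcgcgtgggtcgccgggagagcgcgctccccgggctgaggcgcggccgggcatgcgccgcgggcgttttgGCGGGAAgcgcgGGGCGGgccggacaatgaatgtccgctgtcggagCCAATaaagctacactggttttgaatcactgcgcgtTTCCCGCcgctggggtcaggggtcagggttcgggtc
Xpo1, chr11:23255791-23256040, plus strand: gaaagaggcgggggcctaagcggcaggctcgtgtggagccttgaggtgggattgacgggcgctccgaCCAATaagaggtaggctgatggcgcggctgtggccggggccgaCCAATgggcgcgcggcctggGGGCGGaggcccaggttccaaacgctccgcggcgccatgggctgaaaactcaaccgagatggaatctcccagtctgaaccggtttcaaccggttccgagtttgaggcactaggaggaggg
Nup93, chr8:94214314-94214563, plus strand: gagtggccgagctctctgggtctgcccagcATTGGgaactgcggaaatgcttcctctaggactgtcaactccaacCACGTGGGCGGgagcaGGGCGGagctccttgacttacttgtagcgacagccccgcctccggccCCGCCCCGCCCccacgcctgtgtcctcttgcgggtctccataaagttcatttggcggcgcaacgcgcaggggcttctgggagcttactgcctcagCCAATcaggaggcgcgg
Ranbp1 held 2 E2F motifs, 1 GC box and 1 CCAAT box in this stretch. Xpo1 held 2 CCAAT boxes and 1 GC box, and the Nup93 start shown held 2 CCAAT boxes, 1 E-box and 4 GC boxes. A second Nup93 start, not printed, held 1 CCAAT box, 1 TATA box and no GC box in its 250 bases. Ipo5 and Ipo13, also lower on every anti-miR-335 array, are not printed and held no E2F motif. In 250 bases 1 Ipo5 start held 2 CCAAT boxes and 4 GC boxes, and the other held 1 TATA box. Ipo13 held 2 GC boxes and no other motif in its whole window.

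Across the family's 47 windows, CCAAT was in 48.9%, against 37.4% of all 32851 windows. A GC box was in 66.0%, against 35.7%, an E-box in 17.0%, against 7.15%, and an ETS motif in 17.0%, against 8.86%. The E2F motif was in 12.8%, against 4.60%, the NRF1 motif in 14.9%, against 7.76%, and the TATA box in 10.6%, against 13.6%. The median GC content of the family's windows was 64.3%, against 52.7% for all windows; the part of base composition in these shares was not tested. A match is a description of letters and not of binding.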

How the data were processed

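Intensities deposited by the authors are linear and divided by each array's median, per the labels; the scanner files' headers give the software as CodeLink Expression Analysis, version 4.1.0.29054. Scanner output was used for replicate 1 of each group, where all 35976 and 36032 shared values equalled the software's normalized intensity within 0.0001. Control spots were left out. Names came from the platform's annotation, 21615 of 34967 gene probes having 1 symbol; none was changed by the RefSeq table (GRCm38.p6).

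Values below the 5th percentile of positive ones (0.163) were set to that floor before taking log2. The comparison used limma (3.58.1; R 4.3.3), with lmFit and eBayes with an intensity trend, two-sided, no covariate, with Benjamini-Hochberg adjustment over 34847 probes having at least 2 values per group and a threshold of 0.05. Differences subtract the control mean log2. The fit was tested on simulated data.

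Members, lists and alternatives (listed under the dependence on processing) were chosen with earlier results of these data known. Described with a value on every array were Ranbp1, Rangap1, Rcc1, Ranbp2, Kpna2, Kpnb1, Cse1l and Xpo1, each role's 4 probes of smallest p and its probe of highest mean, genes whose 2 probes above background differ in sign, and from each further list the 2 genes of smallest p. Some further probes of the family, and Pom121, Thoc1 and Zc3h11a, were added after their values were seen. Pom121, Thoc1 and Zc3h11a were all higher by mean log2. Lower on every anti-miR-335 array, and not described elsewhere, were Thoc7 (log2 difference -0.224 ± 0.120, SE), Syne2 (-0.165 ± 0.102) and Pias1 (-0.143 ± 0.092). Slide and scan batches were not tested.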

Additional observations from a re-analysis of the deposited data

How the results depend on the processing

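The members' count of 0 past the threshold, among 0 of all probes, stayed at 0 with the replicate block, quantile normalization, floors at the 1st and 20th percentiles, dim probes left out, no trend, a robust trend, and 1 value per gene (the probe of highest mean, or the mean of its probes). With array weights, lowest for control replicate 1 (0.37) and highest for control replicate 2 (2.25), 1 member (Ranbp1, adjusted p = 0.036 by limma) and 474 of all probes passed. Over all probes the count was 1 after quantile normalization and 3 with a robust trend. Leaving out arrays or pairs gave 0 to 4 members and 0 to 1571 probes: 1100 probes without control replicate 1, 1571 without the replicate 1 pair, 1 without anti-miR-335 replicate 1 and 0 in the other 6 cases.

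Members with an unadjusted p under 0.05 numbered 2 (3.28%, against 9.07% of all probes). They numbered 11 with array weights (18.0%, against 20.0%), 4 with the floor at the 20th percentile (6.56%, against 9.04%) and 5 after quantile normalization (8.20%, against 10.2%). There was 1 (1.64%) each with the replicate block, no trend and a robust trend, against 6.49%, 7.56% and 8.85% of all probes. Leaving out arrays gave 1 to 13. The count was 1 without anti-miR-335 replicate 3 (1.67%, against 5.38%), control replicate 3 (1.67%, against 6.54%) or the replicate 3 pair (1.69%, against 3.97%). It was 13 without the replicate 1 pair (21.7%, against 20.9%). Members whose groups do not overlap numbered 5 (8.47%, against 14.7% of all probes), and 8 after quantile normalization (13.6%, against 16.0%). Leaving out arrays, which leaves fewer values to overlap, gave 7 (11.9%, against 21.8%) to 29 (48.3%, against 50.6%). The median log2 difference of the members was 0.035 and ranged from -0.021 (without control replicate 3, or the replicate 3 pair) to 0.115. On the scanner signal of the replicate 1 pair it was -0.171, a comparison of 1 array per group that holds control replicate 1. Deposited values of the same 2 arrays gave the same order. Set against control replicates 2 and 3, the 46 members above background had a median log2 of 0.11 on anti-miR-335 replicate 1 and 0.26 on control replicate 1.

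Across 21356 probes, arrays sharing a number had deviations from their group means that correlated at -0.22, -0.04 and -0.15. Such correlations cannot decide whether samples sharing a number were prepared together, and the labels do not say. Of 762 log2 differences of the 43 named probes under alternatives, 40 moved by over 1 moderated SD. Of these, 25 were on the scanner signal of the replicate 1 pair, which has 1 array per group. Another 15 were on leaving out arrays, and 0 on any other alternative. For 29 probes at least 1 alternative gave the other sign. The 3 arrays per group limit the precision.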

Other observations

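Structures that work beside the pore were read from 3 further lists, chosen with earlier results of these data known. Of 15 listed nuclear lamina and envelope genes 13 were measured; their median log2 difference was 0.08, with 7 positive and 6 negative. Banf1, which tethers chromatin to the envelope, lay at 50.1, 39.3 and 36.7 on the controls and 49.3, 57.9 and 54.6 on the anti-miR-335 arrays, in replicate order (0.37 ± 0.14, SE). Control replicate 1 again stood among the anti-miR-335 arrays. Emd, which encodes emerin, lay at 2.89, 3.13 and 4.10 against 3.48, 5.02 and 3.95 (0.30 ± 0.17).

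SUMO conjugation, which modifies Rangap1 at the pore, was read by 11 of 16 listed genes, with a median of 0.05 and 7 positive. Pias3, a SUMO ligase, lay at 1.04, 1.02 and 1.04 against 1.90, 1.25 and 1.45 (0.55 ± 0.20), and Sumo3 at 15.9, 16.4 and 18.1 against 19.9, 21.7 and 19.0 (0.27 ± 0.10). In both, every anti-miR-335 array was above every control, control replicate 1 included. Of 9 spindle assembly factors under Ran control 8 were measured, with a median of 0.13 and 6 positive. Aurka, the Aurora A kinase, lay at 1.67, 1.64 and 1.73 against 1.94, 2.12 and 1.98 (0.26 ± 0.14), and Dlgap5, near background, at 0.535, 0.648 and 0.674 against 0.696, 0.936 and 0.767 (0.37 ± 0.24). By limma 0 of the 32 genes passed with all arrays, while 3 had an unadjusted p under 0.05, all higher, where 4.91% of all probes were. Without control replicate 1, 1 gene (Banf1, higher) passed, where 2.27% of all probes did.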
